A study of Mus musculus with 4 samples.

Results

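The genes described here are 10 genes of MHC class I antigen presentation, taken by symbol from the 39179 genes counted in each library. They are the heavy chains *H2-K1* and *H2-D1*, the light chain *B2m*, the peptide transporter subunits *Tap1* and *Tap2*, the loading factor *Tapbp*, the trimming enzyme *Erap1*, the immunoproteasome subunits *Psmb8* and *Psmb9*, and the regulator *Nlrc5*. All 10 symbols were found in the count data, and 7 of the genes lie on chromosome 17, which carries the mouse MHC.

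RNA was sequenced from B16F1 cells, a mouse melanoma line. One group was parental B16F1 cells (control), and the other was tumor repopulating cells (TRCs), which are spheroids that B16F1 cells form in soft three-dimensional fibrin gels, here of 90 Pa and isolated on day 5. Each group has a library numbered 1 and a library numbered 3, called control 1, control 3, TRC 1 and TRC 3 below. The labels name no drug or engineered allele in either group. The paper depicts the control cells in flat culture rather than in a gel, so form of culture and group cannot be told apart. Cells that survive in the gel and cells changed by the gel cannot be told apart either. The sources used here do not say that the libraries of a group came from separate cultures, so the p-values measure only the spread between these libraries, which may be technical.

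MHC class I molecules show short peptides from inside the cell to CD8 T cells. Proteasomes cut proteins into peptides, the TAP transporter moves them into the endoplasmic reticulum, and ERAP1 trims them there. Tapasin, the product of *Tapbp*, holds the empty heavy chain and its light chain, beta-2 microglobulin, at the transporter until a peptide is bound. NLRC5 is a transactivator of many of these genes, and interferon raises most of them. B16 melanoma lines are known for low class I on the cell surface in culture, which interferon gamma raises.

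Between 35948295 and 43511554 counts fell on genes per library, and 11483 genes with at least 1 CPM (counts relative to the TMM-scaled library size) in at least 2 libraries were tested. A level of 3 counts was 0.0674 to 0.0849 CPM, a limit for counting error alone. Not uniquely aligned reads, which were given to no gene, were 15.2% to 18.3% of alignments in 3 libraries and 25.2% in TRC 3. All 8 melanocyte markers listed were expressed, the lowest value being 46.2 CPM for *Tyr* in control 3. Of 12 leukocyte markers, 9 had no count in any library, *Ptprc*, *Itgam* and *Adgre1* among them, and the list summed to 0.629 and 0.538 CPM in control 1 and 3 and to 0.817 and 0.6 CPM in TRC 1 and 3. The 8 fibroblast and endothelial markers summed to 4.76 and 2.24 CPM in control 1 and 3 and to 4.28 and 2.14 CPM in TRC 1 and 3, with *Cdh5* and *Kdr* at 0 counts throughout. In bulk RNA, fewer cells of a type and less RNA per cell cannot be told apart.

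*H2-K1* rose strongly in TRCs, *Tapbp* rose slightly, and 0 of the 8 members tested fell. *Psmb8* and *Psmb9* did not reach the level needed for the test. The calls were made at a false discovery rate (FDR, Benjamini-Hochberg over all genes tested) under 0.05 in edgeR's exact test, and DESeq2's Wald test called the same 2 genes. EdgeR's quasi-likelihood test called 1, *H2-K1*, with an FDR of 0.0718 for *Tapbp*. The 2 genes of the exact test are 25% of the members tested, where 8.81% of all genes tested were called higher, 7.05% lower and 15.9% in either direction. At an unadjusted p under 0.05 stood 3 members that were higher and 0 that were lower. Over all 11483 genes tested, 1703 were higher and 1517 lower at this limit. By sign, 7 members were higher and 1 was lower, with a median log2 fold change (TRC over control) of 0.55. Over all genes tested, 5773 were higher and 5710 lower by sign, with a median of 0.003. TRC 1 and TRC 3 both exceeded control 1 and control 3 for 3 of the 8, *H2-K1*, *Tap2* and *Tapbp*. The same held for 30.2% of all genes tested, and the opposite for 30.4%.

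**Figure D1:**
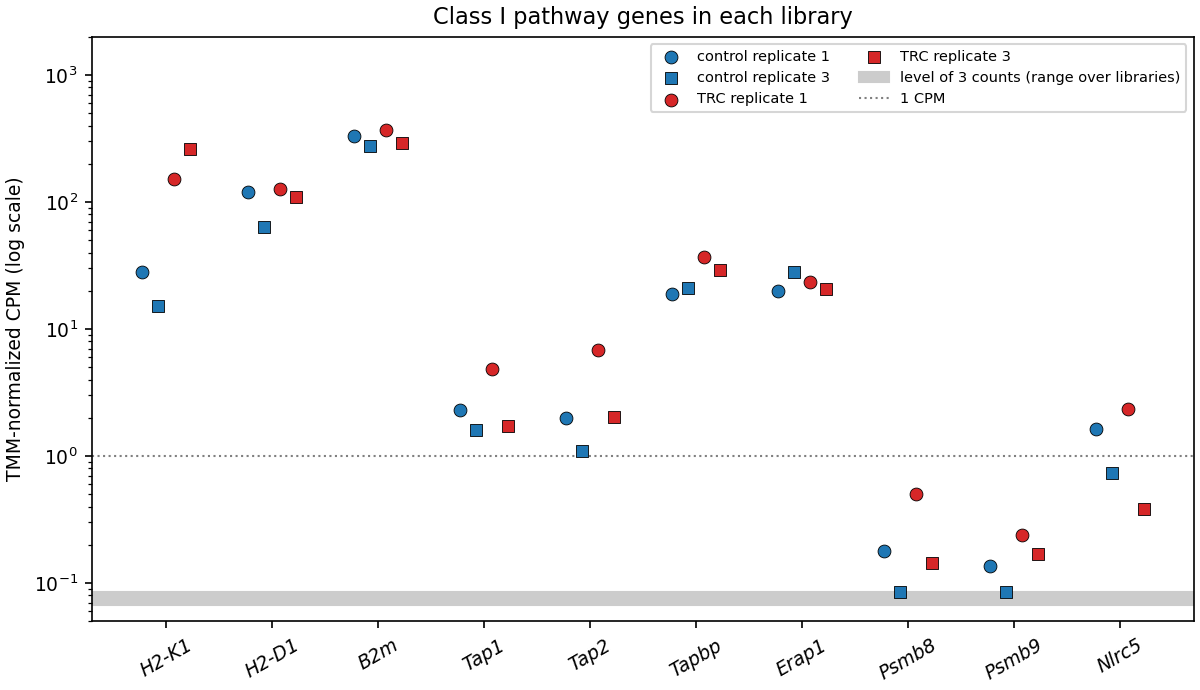
TMM-normalized CPM on a log axis for each of the 10 genes, with colours for the groups and marker shapes for replicate numbers 1 and 3. *H2-K1* shows the widest gap between control (15.2 to 27.9 CPM) and TRC (151 to 263 CPM), and *Psmb8* and *Psmb9* lie below 1 CPM in each library.

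*H2-K1* and *H2-D1* encode the classical heavy chains, which hold the peptide. Their promoters are shown because the genes differed in their change while these windows are much alike, with *B2m* and the non-classical heavy chain gene *H2-T23* for comparison. Each window runs from 250 bases before to 50 bases after the RefSeq start in GRCm38.p6, and 8 of the 10 members had an entry. Capitals mark short motifs searched on both strands. GGGGATTCC, an NF-kappaB motif, was found in 0.259% of 27025 promoters of this length. TTTCACTT, an interferon-response core, was found in 1.67% of them. TGACG, the X2 core, was found in 21%. ATTGG, the Y box, was found in 37.9%. TATAAA was found in 14.2%. The windows are chr17:34000298-34000597 (minus strand) for *H2-K1*, chr17:35262844-35263143 (plus strand) for *H2-D1*, chr2:122147437-122147736 (plus strand) for *B2m* and chr17:36032652-36032951 (minus strand) for *H2-T23*.
H2-K1: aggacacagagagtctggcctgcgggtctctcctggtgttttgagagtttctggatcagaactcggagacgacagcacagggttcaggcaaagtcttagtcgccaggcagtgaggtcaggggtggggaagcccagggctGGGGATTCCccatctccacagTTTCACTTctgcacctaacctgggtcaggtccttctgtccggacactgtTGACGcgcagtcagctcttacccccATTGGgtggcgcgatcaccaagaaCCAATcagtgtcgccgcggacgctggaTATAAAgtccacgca
H2-D1: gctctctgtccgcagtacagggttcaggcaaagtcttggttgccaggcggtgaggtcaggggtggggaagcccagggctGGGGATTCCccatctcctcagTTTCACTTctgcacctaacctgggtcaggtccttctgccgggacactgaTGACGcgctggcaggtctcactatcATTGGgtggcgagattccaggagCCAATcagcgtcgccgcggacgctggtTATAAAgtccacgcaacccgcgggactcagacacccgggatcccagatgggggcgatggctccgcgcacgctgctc
B2m: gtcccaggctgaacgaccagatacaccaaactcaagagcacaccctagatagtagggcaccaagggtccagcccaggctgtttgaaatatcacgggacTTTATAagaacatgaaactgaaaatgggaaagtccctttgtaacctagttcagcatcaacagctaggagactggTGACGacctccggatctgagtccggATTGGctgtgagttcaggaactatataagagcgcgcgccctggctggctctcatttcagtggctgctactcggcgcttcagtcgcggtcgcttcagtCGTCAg
H2-T23: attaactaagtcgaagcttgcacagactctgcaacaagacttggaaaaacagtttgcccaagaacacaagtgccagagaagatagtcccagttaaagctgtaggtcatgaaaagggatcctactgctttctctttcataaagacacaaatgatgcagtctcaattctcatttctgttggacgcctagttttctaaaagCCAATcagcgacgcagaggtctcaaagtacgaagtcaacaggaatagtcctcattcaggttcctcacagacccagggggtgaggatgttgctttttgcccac

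The windows of *H2-K1* and *H2-D1* aligned over 228 positions, of which 206 (90.4%) were identical. Each held the same 6 matches in the same order, namely the NF-kappaB motif, the interferon-response core, the X2 core, the Y box at 2 places and TATAAA. The windows are offset from each other. In the *H2-K1* window TATAAA and the Y box next to it lie after the listed start, and in the *H2-D1* window before it. The window of *B2m* held 4 matches, none of them to the NF-kappaB or interferon-response letters. The window of *H2-T23* held 1 match, to the Y box. Only these exact letters were searched, so a window without a match may hold another form of the same motif. A match describes letters in a window and is not evidence of binding.

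*H2-K1* (ENSMUSG00000061232, chromosome 17 from 33996017 to 34000347, minus strand in GRCm38) had 1241 counts in control 1, 537 in control 3, 6275 in TRC 1 and 10950 in TRC 3. Normalized, this was 27.9 CPM in control 1, 15.2 in control 3, 151 in TRC 1 and 263 in TRC 3. Both TRC libraries were far above both control libraries, and TRC 3 was the highest. The level went from 21.5 ± 8.96 CPM in control cells to 207 ± 79.3 CPM in TRCs (mean ± SD, n = 2 each), a 9.59-fold rise (log2 fold change 3.26, SE 0.34, FDR = 2.15e-17 in edgeR's exact test). *H2-K1* ranked 46 of 11483 genes by log2 fold change. Leaving out any 1 library gave values of 2.80 to 3.77, all with an FDR under 0.05.

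*H2-D1* (ENSMUSG00000073411, chromosome 17 from 35262730 to 35267499, plus strand) stood at 119 CPM in control 1, 63.2 in control 3, 127 in TRC 1 and 109 in TRC 3. Control 1 lay between the TRC libraries, so the groups overlapped. Its log2 fold change did not pass (0.37, SE 0.30, FDR = 0.417). The 95% interval was −0.22 to 0.97 for *H2-D1* and 2.59 to 3.94 for *H2-K1*, so the intervals do not meet. The value for *H2-D1* turned on the control library used, being 0.90 (FDR = 0.0127) without control 1 and −0.011 (FDR = 0.99) without control 3.

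The ratio of the heavy chains within a library does not depend on scaling between libraries. Per kilobase of exon, the ratio of *H2-K1* to *H2-D1* was 0.206 in control 1, 0.211 in control 3, 1.05 in TRC 1 and 2.11 in TRC 3. The control libraries had nearly equal ratios although both genes were higher in control 1, and both TRC ratios exceeded them. An exact permutation test of 2 against 2 libraries cannot give a two-sided p below 0.333. Summed over 15 *H2* heavy chain genes, the level per kilobase was 63.1 CPM in control 1, 35.6 in control 3, 118 in TRC 1 and 150 in TRC 3. The share of *H2-K1* in this sum was 15% in control 1, 14.5 in control 3, 43.6 in TRC 1 and 59.7 in TRC 3. The share of *H2-D1* was 73.1% in control 1, 68.8 in control 3, 41.7 in TRC 1 and 28.3 in TRC 3. *H2-D1* thus made up most of the heavy chain mRNA in both control libraries, and *H2-K1* was the larger in both TRC libraries.

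**Figure D2:**
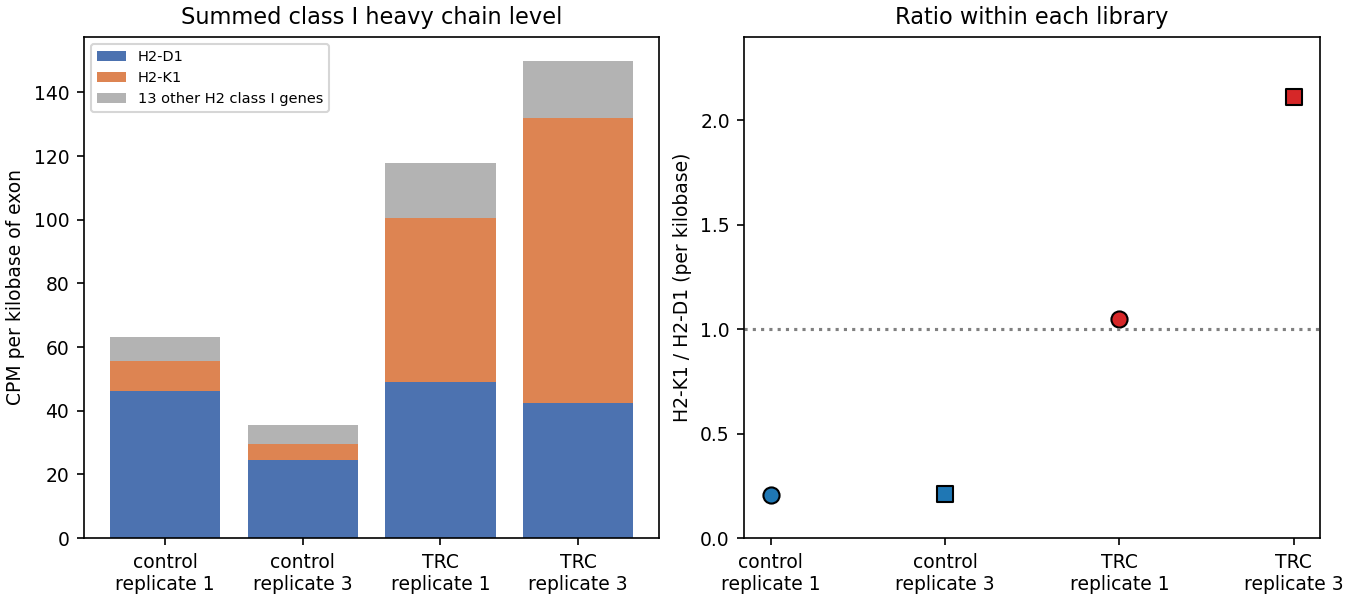
Summed level of 15 *H2* class I heavy chain genes in CPM per kilobase of exon for each library, divided into *H2-K1*, *H2-D1* and the others, beside the ratio of *H2-K1* to *H2-D1* per kilobase. The ratio is 0.206 and 0.211 in the control libraries and 1.05 and 2.11 in the TRC libraries.

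Class I genes resemble each other, and reads that fit several genes were not counted. Of all distinct windows of 101 bases, the read length, in transcripts of *H2-K1*, 0.905% occurred also in transcripts of *H2-Q* genes. Windows that occurred in transcripts of any other gene were 3.55% of those of *H2-D1*, 3.05% of those of *H2-T23* and 31.2% of those of *H2-T22*. The part of these reads in the differences was not tested.

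Within 50 kb of *H2-K1*, 9 neighbouring genes were tested, of which 2 were called higher and 1 lower (neighbours were chosen after the values of *H2-K1* were seen). Over all genes tested 8.81% were called higher and 7.05% lower. *H2-K2*, a transcribed pseudogene of the family, stood at 2.22 CPM in control 1, 1.08 in control 3, 5.67 in TRC 1 and 5.69 in TRC 3 (log2 fold change 1.77, SE 0.50, FDR = 0.00406). The collagen gene *Col11a2* was high in TRC 1 alone, with 8.27 CPM in control 1, 5.75 in control 3, 42.2 in TRC 1 and 6.17 in TRC 3 (log2 fold change 1.79, SE 1.20, FDR = 0.0379). This call was not made by DESeq2 (FDR = 0.321) or by quasi-likelihood (FDR = 0.151), and its 95% interval was −0.56 to 4.14. *Wdr46*, which acts in ribosome biogenesis, was lower in TRCs (log2 fold change −1.37, SE 0.25, FDR = 1.11e-05). Within 50 kb of *H2-D1*, 3 genes were tested and 0 were called by edgeR's exact test or by DESeq2, with 0 at an unadjusted p under 0.05.

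*B2m* (ENSMUSG00000060802, chromosome 2 from 122147686 to 122153083, plus strand) encodes the light chain that class I heavy chains need to reach the cell surface. It stood at 333 CPM in control 1, 277 in control 3, 369 in TRC 1 and 292 in TRC 3. The groups overlapped, and library 1 exceeded library 3 in each. The log2 fold change was near 0 (0.12, SE 0.22, FDR = 0.808), with a 95% interval of −0.31 to 0.55. Per kilobase, *H2-K1* was at 2.45% in control 1, 1.6 in control 3, 12 in TRC 1 and 26.3 in TRC 3 of the level of *B2m*. For *H2-D1* these shares were 11.9% in control 1, 7.59 in control 3, 11.4 in TRC 1 and 12.5 in TRC 3. *B2m* mRNA was thus above each classical heavy chain in each library.

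*Tap1* (ENSMUSG00000037321, chromosome 17 from 34187553 to 34197225, plus strand) and *Tap2* (ENSMUSG00000024339, chromosome 17 from 34203527 to 34216321, plus strand) encode the subunits of the peptide transporter. *Tap1* stood at 2.29 CPM in control 1, 1.61 in control 3, 4.81 in TRC 1 and 1.73 in TRC 3. *Tap2* stood at 2 CPM in control 1, 1.1 in control 3, 6.85 in TRC 1 and 2.02 in TRC 3. Both genes were highest in TRC 1, while TRC 3 lay at or near the level of the controls. Neither passed the test, with log2 fold changes of 0.74, SE 0.63, FDR = 0.398 for *Tap1* and 1.51, SE 0.67, FDR = 0.0688 for *Tap2*. The 95% intervals were −0.495 to 1.98 and 0.20 to 2.825. TRC 1 carried these values, since without it they were −0.195 for *Tap1* and 0.35 for *Tap2*, and without TRC 3 *Tap2* reached 2.125 (FDR = 0.0119).

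*Tapbp* (ENSMUSG00000024308, chromosome 17 from 33915899 to 33929292, plus strand) encodes tapasin, which bridges heavy chain and transporter. It stood at 18.8 CPM in control 1, 21.1 in control 3, 36.7 in TRC 1 and 29.4 in TRC 3, so both TRC libraries exceeded both control libraries. The level rose from 19.9 ± 1.58 CPM in control cells to 33 ± 5.16 CPM in TRCs (mean ± SD, n = 2 each), a 1.66-fold change at the edge of the threshold (log2 fold change 0.73, SE 0.25, FDR = 0.0495). The FDR was 0.0267 to 0.445 over 13 alternatives and 0.05 or more in 9 of them, among them the omission of any 1 library. *Tapbp* overlaps *Zbtb22* on the same strand, and how reads from the overlap were counted is not given in the sources used here.

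*Erap1* (ENSMUSG00000021583, chromosome 13 from 74639568 to 74693201, plus strand) encodes the aminopeptidase that shortens peptides for class I molecules. It stood at 19.8 CPM in control 1, 28.3 in control 3, 23.4 in TRC 1 and 20.5 in TRC 3. The TRC libraries lay inside the range of the control libraries, and the log2 fold change did not pass (−0.13, SE 0.28, FDR = 0.826), with a 95% interval of −0.685 to 0.42. *Erap1* overlaps *Cast* on the other strand, and the strand setting of the counting is not given in the sources used here. Of 13 peptide loading and folding genes, all tested, *Tapbp* was the 1 gene called, 6 were higher and 7 lower by sign, and the median log2 fold change was −0.11. Over all genes tested 15.9% were called in either direction. The chaperone genes *Calr*, *Canx* and *Pdia3*, which also serve class I folding, had log2 fold changes of −0.19, −0.17 and −0.11.

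*Psmb8* (ENSMUSG00000024338, chromosome 17 from 34197721 to 34201454, plus strand) and *Psmb9* (ENSMUSG00000096727, chromosome 17 from 34181987 to 34187764, minus strand) encode catalytic subunits of the immunoproteasome, the form that interferon induces. *Psmb8* had 8 counts in control 1, 3 in control 3, 21 in TRC 1 and 6 in TRC 3. *Psmb9* had 6 counts in control 1, 3 in control 3, 10 in TRC 1 and 7 in TRC 3. *Psmb8* was highest in TRC 1 and its groups overlapped, while both TRC libraries exceeded both controls for *Psmb9*. All of these levels are under the 1 CPM needed for the test, and without the filter the FDR was 0.518 for *Psmb8* and 0.789 for *Psmb9*. The constitutive subunits that they replace were far more abundant. Per kilobase, *Psmb8* was at 0.094% in control 1, 0.0354 in control 3, 0.254 in TRC 1 and 0.0789 in TRC 3 of *Psmb5*. *Psmb9* was at 0.0544% in control 1, 0.0305 in control 3, 0.13 in TRC 1 and 0.0784 in TRC 3 of *Psmb6*. *Psmb9* and *Tap1* overlap on opposite strands, and their promoter windows share 275 bases.

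*Psmb10*, the remaining inducible catalytic subunit, was expressed, with 9.05 CPM in control 1, 15 in control 3, 6.9 in TRC 1 and 6.91 in TRC 3, and was at 9.26% in control 1, 11.9 in control 3, 7.79 in TRC 1 and 7.71 in TRC 3 of *Psmb7* per kilobase. Its log2 fold change did not pass (−0.80, SE 0.36, FDR = 0.164), nor did those of *Psmb5* (−0.18, SE 0.23, FDR = 0.669), *Psmb6* (−0.40, SE 0.21, FDR = 0.243) and *Psmb7* (−0.33, SE 0.215, FDR = 0.376). Of 7 immunoproteasome and PA28 genes, 5 were tested and 0 were called by edgeR's exact test or by DESeq2, while 1 was higher and 2 were lower before adjustment at p under 0.05. The median of the 5 was −0.10.

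*Nlrc5* (ENSMUSG00000074151, chromosome 8 from 94434356 to 94527272, plus strand) had 73 counts in control 1, 26 in control 3, 98 in TRC 1 and 16 in TRC 3. Normalized, this was 1.64 CPM in control 1, 0.736 in control 3, 2.35 in TRC 1 and 0.384 in TRC 3. TRC 1 was the highest library and TRC 3 the lowest, so the TRC libraries enclosed both controls. The log2 fold change was 0.20, SE 0.95, FDR = 0.905, with a wide 95% interval of −1.65 to 2.065, and it was −1.65 without TRC 1. TRC 3 had the most *H2-K1* and the least *Nlrc5*, at 16 counts, while in control cells both genes were higher in control 1. A link between the levels of these genes was not tested.

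Of the proteins that act with NLRC5 at class I promoters, the RFX subunits bind the X box. *Rfx5* (0.43, SE 0.295, FDR = 0.416), *Rfxap* (0.36, SE 0.28, FDR = 0.458) and *Rfxank* (0.665, SE 0.33, FDR = 0.206) had log2 fold changes above 0 that did not pass. *Irf1*, an interferon-response activator of class I genes, stood at 15.9 CPM in control 1, 18 in control 3, 21 in TRC 1 and 20.9 in TRC 3 and did not pass either (0.305, SE 0.25, FDR = 0.549). Over all genes tested, 8.81% were called higher and 7.05% lower. Of 14 transactivator genes listed, *Nlrc5* included, 13 were tested, 0 were called higher and 2 lower, with a median of 0.105. The 2 were the NF-kappaB subunit genes *Rela* (−0.66, SE 0.21, FDR = 0.0264) and *Nfkb1* (−0.66, SE 0.23, FDR = 0.0349). By the quasi-likelihood method the FDR was 0.0483 for *Rela* and 0.0674 for *Nfkb1*. Neither was called without control 3, TRC 1 or TRC 3, with FDR values in that order of 0.144, 0.277 and 0.132 for *Rela* and 0.33, 0.173 and 0.269 for *Nfkb1*.

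**Figure D3:**
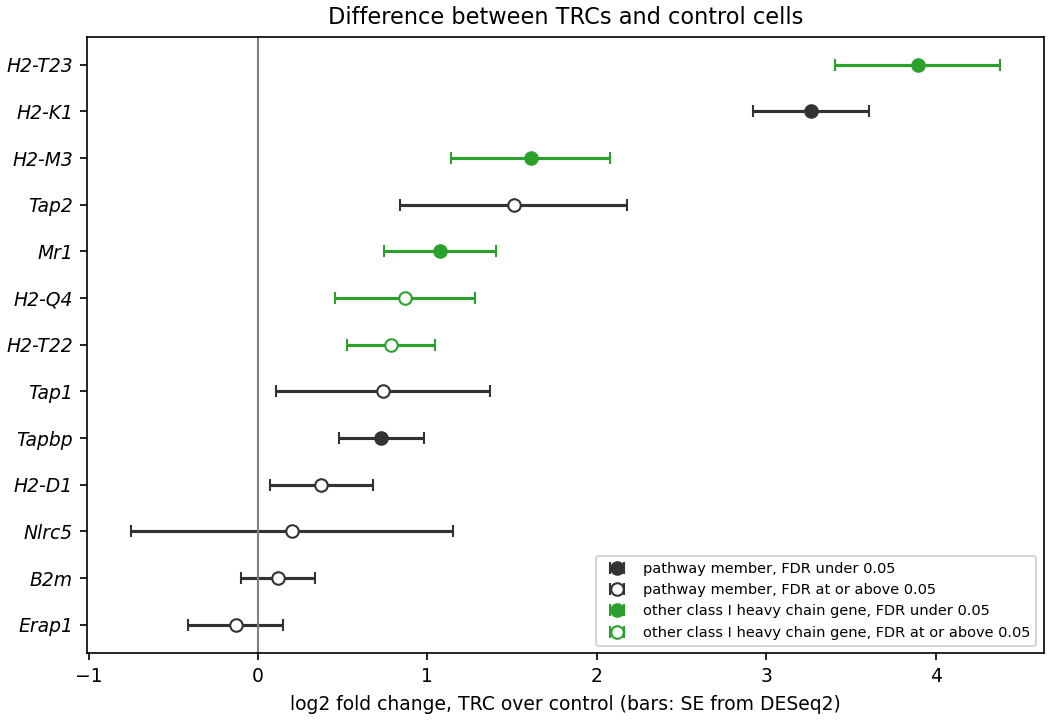
Log2 fold change of TRC over control with its SE for the 8 members tested and the other class I heavy chain genes tested. *H2-T23* (3.89) and *H2-K1* (3.26) lie far to the right of *H2-D1* (0.37) and *B2m* (0.12).

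The wider list of class I heavy chains has 17 genes, *H2-K1* and *H2-D1* included. Of these 7 were tested, 4 were called higher and 0 lower, all 7 had a log2 fold change above 0, and the median was 1.07. Over all genes tested 8.81% were called higher and 7.05% lower. *H2-T23* (ENSMUSG00000067212, chromosome 17 from 36029773 to 36032855, minus strand) encodes Qa-1, which presents leader peptides of other class I chains to an inhibitory receptor of NK cells. It had 62 counts in control 1, 18 in control 3, 471 in TRC 1 and 723 in TRC 3. Normalized, this was 1.39 CPM in control 1, 0.51 in control 3, 11.3 in TRC 1 and 17.4 in TRC 3. As for *H2-K1*, the groups were far apart and TRC 3 was the highest. The log2 fold change was 3.89, SE 0.49, FDR = 1.14e-10, and omitting any 1 library gave 3.36 to 4.81.

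*H2-M3*, whose product presents formylated peptides, rose from 1.61 ± 0.358 CPM in control cells to 4.94 ± 0.529 CPM in TRCs (mean ± SD, n = 2 each), with a log2 fold change of 1.61, SE 0.47, FDR = 0.00571. *Mr1*, which presents vitamin B metabolites and lies on chromosome 1, rose from 21.2 ± 9.87 CPM in control cells to 44.6 ± 1.75 CPM in TRCs (mean ± SD, n = 2 each), with a log2 fold change of 1.07, SE 0.33, FDR = 0.00862. By the quasi-likelihood method the FDR was 0.0463 for *H2-M3* and 0.0658 for *Mr1*. Both calls were lost without control 3, TRC 1 or TRC 3, with FDR values in that order of 0.105, 0.115 and 0.0518 for *H2-M3* and 0.169, 0.124 and 0.0785 for *Mr1*, whose log2 fold change without control 3 was 0.66. *H2-T22* (0.78, SE 0.26, FDR = 0.0702) and *H2-Q4* (0.87, SE 0.41, FDR = 0.178) did not pass in the exact test. DESeq2's Wald test called *H2-T22* (FDR = 0.0205) but not *H2-Q4* (0.132). Neither was called by quasi-likelihood (FDR = 0.0759 and 0.175). Of the 10 heavy chain genes not tested, 4 had no count in any library.

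The list of interferon receptors and JAK-STAT genes, through which class I genes are induced, has 15 genes. Of these 14 were tested, 3 were called higher and 0 lower, where 8.81% of all genes tested were called higher and 7.05% lower. The median of the 14 was 0.39. The 3 were *Stat2*, a subunit of the factor ISGF3 (1.10, SE 0.33, FDR = 0.0157), and the receptor genes *Ifngr2* (0.75, SE 0.24, FDR = 0.0157) and *Ifnar1* (0.65, SE 0.21, FDR = 0.0304). By the quasi-likelihood method their FDR values were 0.0626, 0.0531 and 0.057, none under 0.05. None of the 3 was called without TRC 1, where the FDR values were 0.304, 0.199 and 0.153. Nor was *Stat2* called without control 3 (FDR = 0.222), *Ifngr2* without control 1 or TRC 3 (0.145 and 0.0913), or *Ifnar1* without any 1 library.

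The class II pathway was close to silent. Of 11 genes listed, 3 had no count, and *Ciita*, the class II transactivator, had 1 count in control 1 and 0 in the other libraries. *H2-DMb1*, a chain of the class II peptide editor, was the 1 gene tested. It passed the filter only through the TRC libraries, where it was higher. At its control level in both groups it would not have been tested. It rose from 0.285 ± 0.0422 CPM in control cells to 1.81 ± 1.07 CPM in TRCs (mean ± SD, n = 2 each), with a log2 fold change of 2.65, SE 0.855, FDR = 0.000625. Without TRC 1 this was 1.86 and not called (FDR = 0.107). Among the 8 melanocyte markers, *Dct*, a melanin enzyme gene, was called higher (1.08, SE 0.21, FDR = 0.000307) and 0 were lower. The share called higher over all genes tested was 8.81%. By the quasi-likelihood method *Dct* was not called (FDR = 0.0704).

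By level per kilobase of exon, the order in control cells was *B2m* with 355 ± 45.7 CPM per kilobase (mean ± SD, n = 2), *H2-D1* with 35.3 ± 15.3, *H2-K1* with 7.33 ± 3.05, *Tapbp* with 5.5 ± 0.436 and *Erap1* with 3.3 ± 0.832. *Tap2*, *Tap1*, *Nlrc5*, *Psmb8* and *Psmb9* followed, with means from 0.41 down to 0.03. In TRCs *H2-K1* with 70.4 ± 27 CPM per kilobase and *H2-D1* with 45.8 ± 4.73 changed places, and the other ranks were the same. Neighbours in this order with overlapping libraries were *H2-K1* and *Tapbp*, *Tap2* and *Tap1*, and *Psmb8* and *Psmb9* in control cells. In TRCs they were *Tap2* and *Tap1*, *Nlrc5* and *Psmb8*, and *Psmb8* and *Psmb9*. Per kilobase of the longest transcript, *Tap1* (0.499) stood above *Tap2* (0.451) in control cells. In TRCs *Tap2* (1.29) stood above *Tap1* (0.835) by that measure.

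Several members differed between libraries 1 and 3 of a group. On the scale of log2(CPM + 0.5), library 1 exceeded library 3 in control cells for 8 of the 10 genes, in TRCs for 9, and in both groups for 7. Of the 8 genes tested this held for 6 in control cells, 7 in TRCs and 5 in both groups. Over all 11483 genes tested it held for 5683 in control cells, 5730 in TRCs and 3039 (26.5%) in both. The remaining members, *Psmb8* and *Psmb9*, lay under 1 CPM in each library. *Nlrc5* differed by 0.79 in control cells and 1.69 in TRCs. *Tap2* differed by 0.64 in control cells and 1.55 in TRCs. *Tap1* differed by 0.40 in control cells and 1.25 in TRCs. These 3 genes had the widest gaps between the TRC libraries. *H2-D1* differed by 0.91 in control cells and 0.21 in TRCs, and *B2m* by 0.26 in control cells and 0.34 in TRCs. *H2-K1* differed by 0.85 in control cells and −0.80 in TRCs, the 1 member with library 3 higher in TRCs. *Tapbp* (−0.16 in control cells and 0.32 in TRCs) and *Erap1* (−0.51 in control cells and 0.18 in TRCs) also had opposite signs in the groups.

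**Figure D4:**
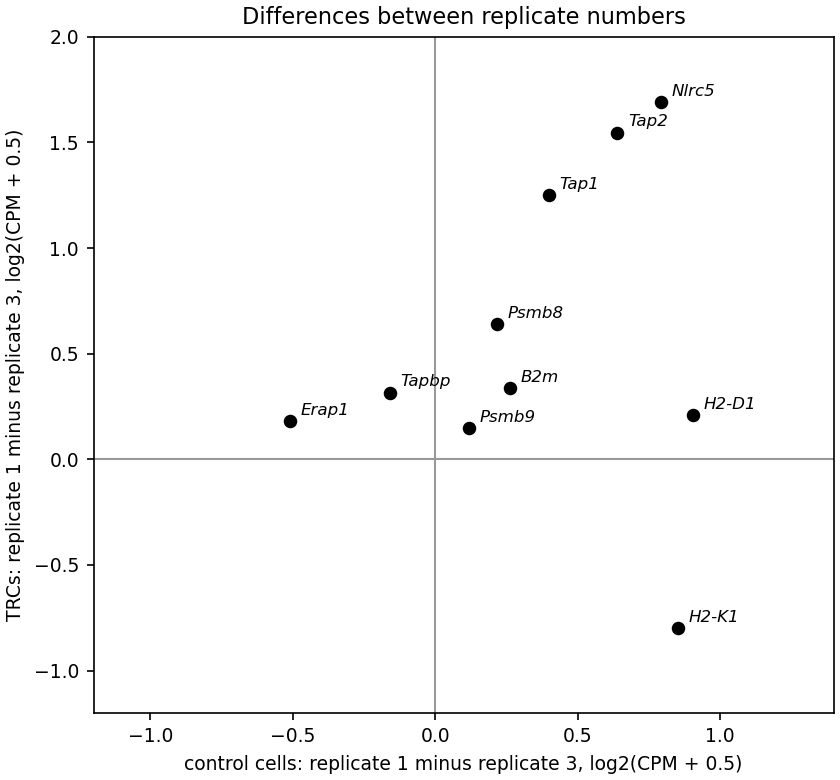
Difference of library 1 minus library 3 on the log2(CPM + 0.5) scale in control cells and in TRCs for the 10 genes. *Nlrc5*, *Tap2* and *Tap1* are the farthest above 0 in TRCs, and *H2-K1* is the 1 gene below 0 there.

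A model with group and replicate number (edgeR's quasi-likelihood test) called 0% of all genes tested for replicate number, with 621 of 11483 genes at an unadjusted p under 0.05. Fitting both terms to 4 libraries leaves little to measure the spread from, so power was low. The absence of calls does not show that the libraries are alike. DESeq2's Wald test called 24 genes, 0 of them members. At an unadjusted p under 0.05 with library 1 higher stood 3 of the 8 members, where 2.95% of all genes tested did. They were *Nlrc5* (log2 difference 1.86), *Tap2* (1.33) and *H2-D1* (0.56), each with an FDR of 0.85. The interferon signalling genes *Irf9* (0.805) and *Stat2* (0.59) met the same limit, each also with an FDR of 0.85. What the numbers mark is not given in the sources used here, and its part in these differences was not tested.

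The genes nearest in pattern to the median of the 8 members tested were *Zfp354c*, *Tst*, *Ell2*, *Uevld* and *Oaz2*. Their root mean square distances over the 4 libraries were 0.032 to 0.05 on the log2(CPM + 0.5) scale, among 9777 candidates with a mean of at least 5 CPM. Relative to the mean of the 4 libraries, the median pattern of the members was −0.125 in control 1 and −0.415 in control 3. It was 0.67 in TRC 1 and −0.129 in TRC 3. The pattern was thus lowest in control 3 and highest in TRC 1, while TRC 3 lay near control 1.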

How the data were processed

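RNA of parental B16F1 cells and TRCs was sequenced in 4 libraries. The authors trimmed single-end reads of 101 cycles (Trimmomatic 0.35), used TopHat2 2.1.0 for alignment to GRCm38 (Bowtie2 2.2.6, SAMtools 1.3) and counted with htseq-count. The deposited data are unnormalized counts for each Ensembl gene. Counting mode and strand setting are not given in the sources used here.

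The 5 totals of alignments assigned to no gene (20.2% to 29% of alignments, mostly those not uniquely aligned) were removed. Positions and exon lengths came from GENCODE M21 (GRCm38), promoters from RefSeq (GRCm38.p6). Following the study's methods, genes under 1 CPM in at least 3 libraries were removed, TMM factors were 0.957 to 1.04, and groups, taken from the labels, were compared with the exact test of edgeR 4.0.16 (R 4.3.3). SEs and 95% intervals came from DESeq2 1.42.0. Replicate number was tested by quasi-likelihood beside group. Both tests were tested on simulated data. Promoters were aligned with Biopython 1.88.

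Members and lists were chosen with earlier results of these data known. Named by rule were the members, up to 3 called genes per list with the smallest FDR, *Psmb5*, *Psmb6*, *Psmb7*, a set of regulators (1 is not reported here) and the 5 genes nearest in pattern. Neighbours, chaperone genes, *Psmb10*, *H2-T22*, *H2-Q4*, *Irf9* and single markers were named after their values were seen. Alternatives covered filters, normalizations, dispersions, tests, a replicate block and each library left out.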

Additional observations from a re-analysis of the deposited data

How the results depend on the processing

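*H2-K1* and *H2-T23* kept their direction and an FDR under 0.05 in all 13 alternatives, with FDR values of at most 0.0208 and 0.0253. The 2 calls among members became 1 without the filter, with at least 10 counts in every library, with library size only, and by quasi-likelihood without or with the replicate block. With a library omitted they were 1 to 2, where the second was *H2-D1* or *Tap2* and never *Tapbp*. The 1822 calls over all genes became 1054 by quasi-likelihood, 785 with the replicate block and 773 to 1932 with a library omitted. Among 48 companion genes tested 9 were called, where 15.9% of all genes tested were. These 9 became 4 by quasi-likelihood and 3 with the replicate block, and their number also moved with a library omitted. The replicate block also ended the calls of *H2-M3* (FDR = 0.0575), *Rela* (0.0634) and the neighbour *H2-K2* (0.0576), which held by quasi-likelihood without it. The block adds a term to a fit of 4 libraries, which leaves less to measure the spread from. Fits with 1 library in a group assume that it varies like the other group. Libraries of the same number did not deviate together (r = 0.0267 across genes), so the numbers were not taken as pairs. With a library omitted, log2 fold changes ran from −0.011 to 0.90 for *H2-D1*, −0.079 to 0.27 for *B2m*, −0.195 to 1.29 for *Tap1*, −0.37 to 0.15 for *Erap1* and −1.65 to 0.97 for *Nlrc5*, which was −0.107 with the replicate block. For replicate number, DESeq2 called 24 genes in place of 0. Without the group term *H2-K1* turned to −0.64, in a fit that takes no account of the difference between the groups. The cause of the other shifts was not tested. Low counts limited what could be measured for *Psmb8* and *Psmb9*, with 3 to 21 per library.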
